A study of Mus musculus with 6 samples.

Results

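The intercalated disc is the end-to-end contact between heart muscle cells, and 10 of its adherens junction and desmosome genes are described here. They are Cdh2, Ctnnb1, Ctnna1, Ctnna3, Vcl, Jup, Dsp, Pkp2, Dsg2 and Dsc2, chosen by symbol for their place in the disc. All 10 were found among the 30323 gene IDs of the deposited count table, each as 1 Ensembl gene, and all 10 passed the filter on low counts that left 14697 genes to be tested. RNA came from whole mouse hearts at embryonic day 9.5. The control group is labelled C57BL/6 ctrl, and the other group is labelled as a Cdc42 knockout, which the series' design text places in the myocardium (MCKO). There were 3 libraries per group. Control libraries summed to between 19256840 and 32169289 estimated counts, and MCKO libraries to between 23883877 and 34246477. The Cre line, the floxed exon, the strain of the knockout embryos and any allele that the controls carry are not given in the labels. The design text counts 3 hearts in each group, but no label ties a library to a heart or a litter. The p-values therefore rest on library-to-library spread alone, part of which may be technical.

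In adherens junctions the cadherin N-cadherin (Cdh2) spans the membrane. Its tail binds beta-catenin (Ctnnb1) or plakoglobin (Jup), and alpha-catenins and vinculin tie that complex to actin filaments. In desmosomes the cadherins desmoglein 2 (Dsg2) and desmocollin 2 (Dsc2) span the membrane, plakoglobin and plakophilin 2 (Pkp2) bind their tails, and desmoplakin (Dsp) links them to intermediate filaments. In the early heart tube these junctions form along the borders of the muscle cells, and the disc at the cell ends takes shape later. Desmosome proteins are also made in epithelia, and N-cadherin, beta-catenin, alpha-catenin 1 and vinculin in most tissues of the embryo.

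The start sites of 5 of the 10 genes were found in the RefSeq promoter table (GRCm38.p6). The 250 bases before the start are shown for Dsp and Jup, which are among the 3 genes with the largest rises, and for Ctnnb1, which was not called, so that the windows can be set side by side. Capitals mark the GC box GGGCGG, searched on both strands, a motif bound by Sp family factors.
Dsp, chr13:38151044-38151293, plus strand: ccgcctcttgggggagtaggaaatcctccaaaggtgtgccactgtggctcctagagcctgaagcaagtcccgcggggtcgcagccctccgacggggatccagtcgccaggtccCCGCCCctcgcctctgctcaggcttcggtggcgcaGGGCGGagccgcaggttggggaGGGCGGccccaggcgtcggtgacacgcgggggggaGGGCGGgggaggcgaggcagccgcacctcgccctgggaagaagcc
Jup, chr11:100397791-100398040, minus strand: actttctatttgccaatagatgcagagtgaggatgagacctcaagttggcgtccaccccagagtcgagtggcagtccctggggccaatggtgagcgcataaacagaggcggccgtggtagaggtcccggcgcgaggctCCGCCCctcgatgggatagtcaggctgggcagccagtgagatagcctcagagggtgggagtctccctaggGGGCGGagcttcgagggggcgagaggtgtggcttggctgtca
Ctnnb1, chr9:120933150-120933399, plus strand: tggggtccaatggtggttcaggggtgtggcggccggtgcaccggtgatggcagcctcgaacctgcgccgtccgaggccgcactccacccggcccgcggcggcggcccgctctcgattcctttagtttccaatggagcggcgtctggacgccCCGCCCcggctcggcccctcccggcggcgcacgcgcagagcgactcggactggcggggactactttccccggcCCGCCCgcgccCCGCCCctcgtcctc
The GC box occurred 4 times before Dsp, 2 times before Jup and 3 times before Ctnnb1, and 32.7% of 32851 windows of this length held it at least once. These windows were 72.4%, 62.0% and 74.8% G and C, against a median of 52.4% over all windows. The E-box CANNTG, present in 66.2% of windows, and the core hypoxia element ACGTG, present in 16.6%, had no match in any of the 3. Among windows not printed, those before Vcl and the first Ctnna3 start each held 1 ACGTG match. The windows before the later Ctnna3 starts held none. GATA, present in 53.6% of windows, matched 2 times before Jup and was not found in the printed Dsp and Ctnnb1 windows. Ctnnb1 has a second start in the table, and the window before it, chr9:120933328-120933577, overlaps annotated exons, is not printed and holds 2 GC boxes and 1 GATA match. No 2 of these matches overlap in the printed windows, and matches are given as letters only. The Dsp window overlaps 1 annotated exon, and the printed Jup and Ctnnb1 windows overlap no annotated exon. Gm10129, a gene model on the opposite strand, shares 499 exon bases with Dsp.

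Cdc42 itself was at 377.3 to 423.7 CPM (counts scaled to a common library total) in controls and at 238.5 to 247.6 CPM in MCKO, with a log2 fold change of -0.66 (SE 0.047, edgeR quasi-likelihood test, adjusted p = 2.93e-06). Of the 10 junction genes, 7 rose in MCKO, 2 fell and 1 was not called at an adjusted p under 0.05. Over all 14697 tested genes 58.4% were called, 29.3% as higher and 29.1% as lower. In CPM, 9 of the 10 genes did not overlap between the groups, 6 with MCKO higher and 3 with MCKO lower, and the same held for 65.5% of all tested genes, 28.3% with MCKO higher and 37.2% with MCKO lower. The median log2 fold change was 0.26 over the 10 genes and 0.00057 over all tested genes. Jup, Pkp2 and Dsp, which make up the inner face of the desmosome, had the largest rises. Dsc2 and Dsg2, which cross the membrane, fell. The adherens junction genes rose by less, and Ctnnb1 was the gene not called. The share of counts from mitochondrially encoded genes was 3.13 to 3.55% in control libraries and 1.31 to 1.38% in MCKO libraries, so it moved with the groups, and its part in these changes was not tested. These are whole hearts, in which fewer or more cells of a type and less or more RNA per cell cannot be told apart.

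**Figure D1:**
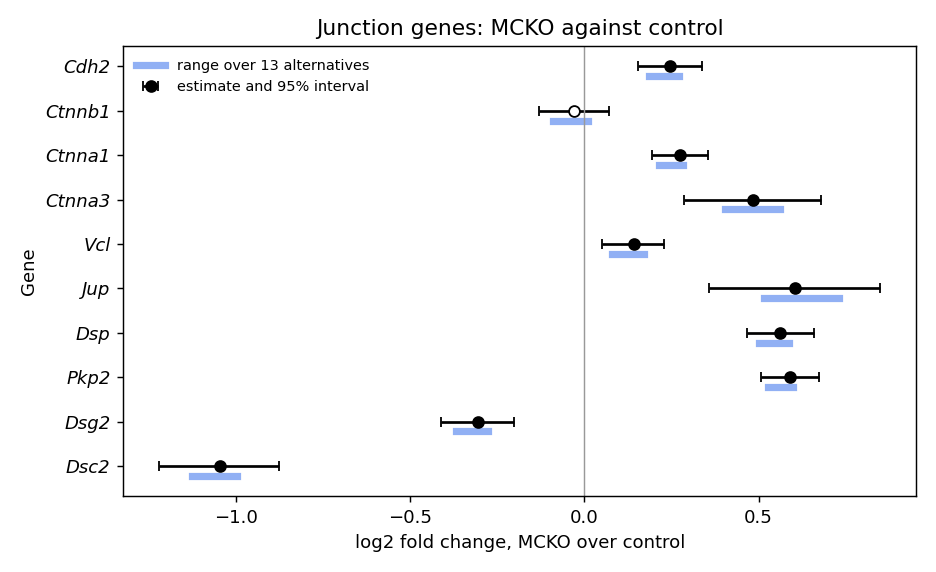
Log2 fold change of each junction gene, MCKO over control, from edgeR (points, filled where called, with 95% intervals). Blue bars give the range over 13 alternative fits. Jup, Dsp and Pkp2 lie between 0.56 and 0.60, Dsg2 at -0.31 and Dsc2 at -1.05, and the interval of Ctnnb1 spans 0.

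Cdh2, the classical cadherin of heart muscle, rose by a small amount. It was at 437, 430 and 459 CPM in controls and at 518, 494 and 496 CPM in MCKO. Every MCKO library was above every control library. The rise was 1.19-fold, or 0.25 on the log2 scale (SE 0.040), with an edgeR adjusted p of 0.000624. The gene (ENSMUSG00000024304) spans 16588877 to 16809246 of chromosome 18 (GRCm38), minus strand.

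Ctnnb1 encodes beta-catenin, which binds the N-cadherin tail and also carries the canonical Wnt signal. It was at 712, 772 and 716 CPM in controls and at 676, 694 and 697 CPM in MCKO. As shares of the library total the groups did not overlap, with MCKO lower. Relative to the bulk of genes, as TMM normalization scales them, it changed by -0.03 (log2, SE 0.045, 95% interval -0.13 to 0.07, edgeR adjusted p = 0.609), or by 0.01 without control replicate 2, where the sign was opposite. The gene (ENSMUSG00000006932) lies on chromosome 9 at 120929216 to 120960507, and 759 of its exon bases lie opposite exons of Ulk4, which was at 1.87 CPM in controls and 2.69 CPM in MCKO.

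Ctnna1 encodes alpha-catenin 1, which links beta-catenin or plakoglobin to actin. In controls its level was 639, 634 and 617 CPM, against 733, 729 and 729 CPM in MCKO. The groups stood apart, and the MCKO libraries were nearly level (SD 2.8 CPM). Its log2 fold change was 0.27 with an SE of 0.036 (edgeR adjusted p = 0.000157). Ctnna3, the alpha-catenin of heart muscle and testis, was far less abundant, at 19.3, 18.95 and 22.2 CPM in controls and 29.9, 25.2 and 26.001 CPM in MCKO. It rose by 0.48 on the log2 scale (SE 0.087, edgeR adjusted p = 0.00108), and again the groups did not overlap. Ctnna3 (ENSMUSG00000060843) spans 1574 kb of chromosome 10, from 63430098 to 65003667, the longest span of the 10 genes. Ctnna1 (ENSMUSG00000037815) spans 135.9 kb of chromosome 18, from 35118859 to 35254779.

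With counts divided by exon length, Ctnna1 made up 97.2 ± 0.29% of the counts of both alpha-catenins in controls and 96.8 ± 0.28% in MCKO (SD, n = 3 each). The libraries of the groups overlapped in this share (exact permutation test, 2-sided, p = 0.3, where 3 against 3 libraries can give no less than 0.1). The difference of -0.416 percentage points was within the spread between libraries.

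Vcl encodes vinculin, which binds alpha-catenin under tension and reinforces its hold on actin. It was at 356, 345 and 355 CPM in controls and at 381, 378 and 356 CPM in MCKO. The lowest MCKO library lay within the control range, so the groups overlapped. The change was small, 0.14 on the log2 scale (SE 0.040, edgeR adjusted p = 0.0125). The call was lost with library totals in place of TMM (0.08, edgeR adjusted p = 0.127), without MCKO replicate 1 (0.13, adjusted p = 0.0605) and without MCKO replicate 2 (0.13, adjusted p = 0.0581). The gene (ENSMUSG00000021823, chromosome 14 at 20929398 to 21033676) shares 2090 exon bases, 25.5% of its own, with Ap3m1 on the opposite strand. Ap3m1 was at 154 CPM in controls and 130 CPM in MCKO, and whether the counting used strand is not given in the sources used here, so the value of Vcl is uncertain.

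Jup encodes plakoglobin, the armadillo protein that serves both junction types. Its level was 128, 157 and 117 CPM in controls and 187, 201 and 196 CPM in MCKO. The control libraries were spread more widely (SD 20.6 CPM) than those of MCKO (SD 7.0 CPM), with control replicate 2 the highest of them, but they did not reach the MCKO range. It rose by 0.60 on the log2 scale (SE 0.10, edgeR adjusted p = 0.00188). The gene (ENSMUSG00000001552) spans 100368958 to 100397763 of chromosome 11, minus strand.

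Plakoglobin and beta-catenin compete for the same stretch of the N-cadherin tail, so their transcripts were set against each other. Per exon length, Jup made up 12.7, 14.1 and 11.7% of the counts of both in controls and 18.3, 18.96 and 18.5% in MCKO. The difference was 5.77 percentage points and the groups did not overlap (exact permutation test, 2-sided, p = 0.1, the smallest that 3 against 3 libraries allow).

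Dsp encodes desmoplakin, the protein that anchors intermediate filaments to the desmosome. It had the most counts of the 10 genes in every library: 943, 872 and 938 CPM in controls and 1326, 1317 and 1254 CPM in MCKO. The gap between the groups was wider than the spread within either. Dsp rose 1.48-fold, or by 0.56 on the log2 scale (SE 0.043, edgeR adjusted p = 4.78e-06). The gene (ENSMUSG00000054889) lies on chromosome 13 at 38151294 to 38198577.

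Pkp2 encodes plakophilin 2, which clusters desmosomal cadherins and binds desmoplakin. It was measured at 155, 148 and 153 CPM in controls and at 220.3, 220.4 and 217 CPM in MCKO. Within each group the libraries were nearly level, with SDs of 3.2 and 2.2 CPM. Pkp2 rose 1.51-fold, or by 0.59 on the log2 scale (SE 0.037, edgeR adjusted p = 1.36e-06). The gene (ENSMUSG00000041957) lies on chromosome 16 at 16213318 to 16272712.

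The desmosomal cadherin genes went the other way. Dsc2, desmocollin 2, was at 99.1, 91.2 and 105 CPM in controls and at 50.6, 43.7 and 42.7 CPM in MCKO. The groups were far apart, and Dsc2 had the largest change of the 10 genes, at -1.05 on the log2 scale (SE 0.075, edgeR adjusted p = 3.69e-06). It was the 1 junction gene changed at least 2-fold, a size that 11% of tested genes passed together with the adjusted p. Dsg2, desmoglein 2, the partner cadherin in heart muscle, was at 83.6, 83.6 and 89.1 CPM in controls and at 65.6, 68.6 and 64.5 CPM in MCKO. Here too every MCKO library was below every control library, by a smaller amount, at -0.31 on the log2 scale (SE 0.046, edgeR adjusted p = 0.000379).

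Both genes lie in the cluster of desmosomal cadherin genes on chromosome 18. Dsc2 (ENSMUSG00000024331) spans 20030633 to 20059554 (minus strand), and Dsg2 (ENSMUSG00000044393) 20558074 to 20604521 (plus strand). The cluster's other 7 genes, Dsc1, Dsc3, Dsg1a, Dsg1b, Dsg1c, Dsg3 and Dsg4, encode the cadherins of skin and other stratified epithelia. None of them had more than 12 counts in any library, and none passed the filter. Dsg1a and Dsg1b are near-identical copies, so their few counts are uncertain.

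**Figure D2:**
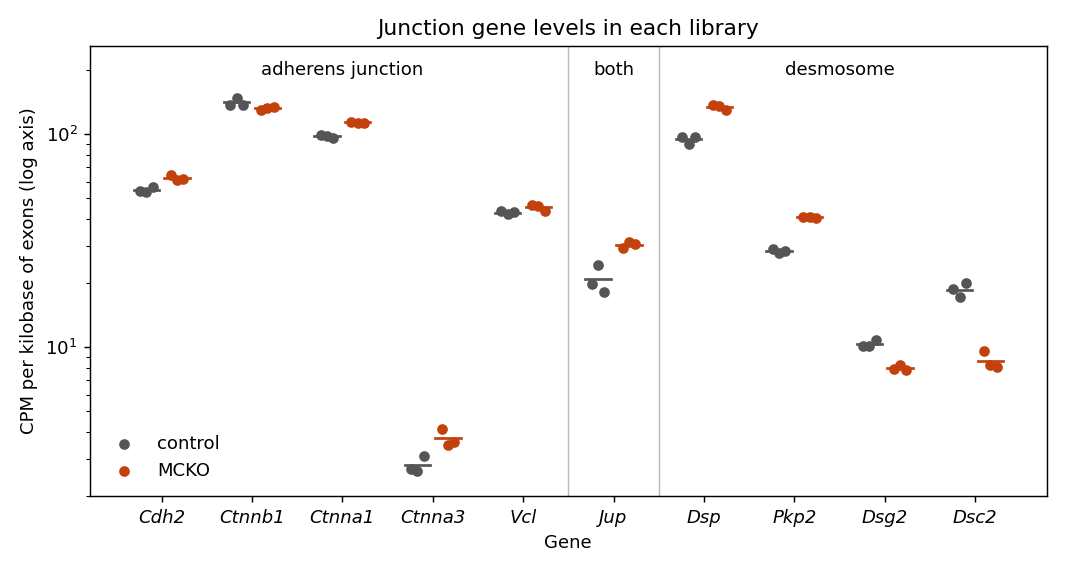
CPM per kilobase of exons of each junction gene (log axis). Points are the 3 control and 3 MCKO libraries and bars are group means. Dsp and Pkp2 are higher and Dsg2 and Dsc2 lower in all MCKO libraries, while Vcl overlaps between the groups.

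Levels were compared between genes per kilobase of the exons of each gene. In controls the order was Ctnnb1 (141 ± 6.4 CPM per kilobase), Ctnna1 (98.1 ± 1.8), Dsp (95 ± 4.1), Cdh2 (54.8 ± 1.8), Vcl (43.0 ± 0.78), Pkp2 (28.3 ± 0.60), Jup (20.8 ± 3.2), Dsc2 (18.7 ± 1.4), Dsg2 (10.3 ± 0.38) and Ctnna3 (2.79 ± 0.25), each as mean ± SD of 3 libraries. Ctnna1 and Dsp overlapped in their ranges, as did Jup and Dsc2, and the other neighbours in the order did not. In MCKO, Dsp (134.5 ± 4.1) and Ctnnb1 (132.6 ± 2.2) overlapped at the top, and Dsc2 (8.66 ± 0.82) overlapped Dsg2 (8.01 ± 0.25). With the longest transcript as the length, the control order was the same. In MCKO, Ctnna1 (195.6 ± 0.75) then came before Ctnnb1 (190.1 ± 3.2) and Dsp (135 ± 4.1), Pkp2 (74.8 ± 0.76) before Vcl (70.6 ± 2.5), and Dsg2 (11.5 ± 0.36) before Dsc2 (9.87 ± 0.93). Which transcripts of a gene were present is not known, so the order between close genes rests on the length chosen.

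The balance between the members was read as shares of length-scaled counts in each library. Dsp, Pkp2, Dsg2 and Dsc2 together made up 31.6, 29.6 and 31.7% in controls and 35.3, 35.2 and 34.3% in MCKO of the counts of these genes and the 5 adherens junction genes, with Jup left out because it serves both junctions. The MCKO libraries were all above the controls, by 3.97 percentage points in the mean, and no p is given for this sum over the junction genes. The higher sum was not shared by all 4 genes. Per kilobase, Dsp and Pkp2 were higher and Dsg2 and Dsc2 lower in every MCKO library. Dsp had the most length-scaled counts of the 4 in every library, so it weighs most in the sum. Among the counts of the 4 desmosome genes the share of the cadherins was lower in MCKO. Dsg2 and Dsc2 made up 18.6, 18.8 and 19.7% of the counts of Dsg2, Dsc2, Dsp and Pkp2 in controls and 8.95, 8.54 and 8.54% in MCKO. Between the cadherins, Dsc2 made up 65.0, 63.1 and 65.0% in controls and 54.7, 49.97 and 50.9% in MCKO. These last shares were formed after the values had been seen and are given as descriptions, without a test.

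**Figure D3:**
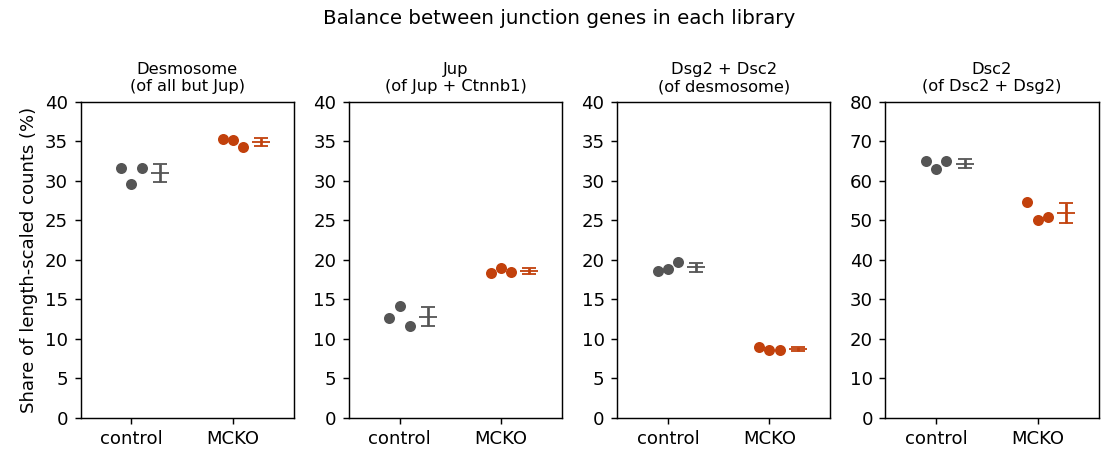
Shares of length-scaled counts in each library, in percent, with points for libraries and bars for mean ± SD (n = 3 per group). From left to right, the 4 desmosome genes among all junction genes but Jup, Jup against Ctnnb1, the desmosomal cadherins among the 4 desmosome genes, and Dsc2 against Dsg2. The cadherin share goes from 19.04 ± 0.56% to 8.68 ± 0.23%, and no panel has overlapping groups.

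Heart muscle RNA moved in the same libraries. All 11 heart muscle markers were detected, and together they took 35850 to 39560 CPM in controls and 42710 to 44420 CPM in MCKO. Of the 11, 5 rose and none fell, among them Myh7, a myosin heavy chain, at 0.74 (SE 0.056) and Myl7, an atrial myosin light chain, at 0.55 (SE 0.062). Each junction gene was therefore also set against the summed counts of these markers, a scale chosen after the data had been seen. Cdh2 was at 11.5, 10.9 and 12.8 counts per 1000 muscle marker counts in controls and 12.1, 11.3 and 11.2 in MCKO, so the groups overlapped, and they also overlapped for Ctnna1, Ctnna3 and Vcl. Dsp stayed apart, at 24.9, 22.1 and 26.2 in controls and 31.1, 30.2 and 28.2 in MCKO, a ratio of means of 1.22. Jup (1.26) and Pkp2 (1.25) were likewise higher in every MCKO library. Dsc2 (0.401), Dsg2 (0.67) and Ctnnb1 (0.814) were lower in every MCKO library. On this scale 68.9% of tested genes did not overlap between the groups, 16.8% with MCKO higher and 52.1% with MCKO lower. Much of the difference in the marker sum came from Myh7, which went from 6332 to 10131 CPM, while 6 of the 11 markers were not called. Without Myh7 the sum was 30020 to 32890 CPM in controls and 32930 to 34110 CPM in MCKO.

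On the scale without Myh7, Ctnna1 (ratio of means 1.09) and Ctnna3 (1.26) no longer overlapped between the groups and were higher in MCKO, while Cdh2 (1.07) and Vcl (0.992) still overlapped. Jup (1.37), Dsp (1.33) and Pkp2 (1.35) were again higher, and Dsc2 (0.434), Dsg2 (0.727) and Ctnnb1 (0.882) lower, in every MCKO library. Of all tested genes 65% did not overlap on this scale, 22% with MCKO higher and 43% with MCKO lower. The directions of Jup, Dsp, Pkp2, Dsc2 and Dsg2 were thus the same on both muscle scales, and whether Ctnna1 and Ctnna3 overlapped rested on Myh7.

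Markers of other cell types moved as well. In epithelia, which also make desmosomes, 12 of 13 markers rose and 1 fell, and their sum went from 199.4 to 218.7 CPM in controls to 641.8 to 714.4 CPM in MCKO. Krt19, a keratin of several epithelia, was at 42.6 ± 3.1 CPM in controls and made up the larger part of the sum in MCKO, at 394.6 ± 25.1 CPM. Krt18 was at 50.5 ± 2.2 and 90.5 ± 2.4 CPM, and Krt8, which has a near-identical copy, at 108.6 ± 6.7 and 165.3 ± 9.1 CPM. Krt8, Krt18 and Krt19 made up most of the sum in both groups. Epcam and Cdh1 were named after their values were seen. Epcam, an epithelial adhesion molecule, was at 0.898 ± 0.091 and 5.41 ± 0.41 CPM, and the epithelial cadherin Cdh1 at 1.31 ± 0.49 and 3.26 ± 0.43 CPM. The part of epithelial cells in the rises of Dsp, Pkp2 and Jup and in the falls of Dsc2 and Dsg2 was not tested. Of 10 endothelial and endocardial markers 8 rose, Pecam1 with a log2 fold change of 0.70 (SE 0.039), and 2 fell, Npr3 with -0.92 (SE 0.053), with sums of 1066 to 1092 and 1163 to 1196 CPM. All 8 red cell markers rose, among them Hbb-y and Hbb-bh1, from sums of 3045 to 3338 CPM to sums of 6393 to 6807 CPM.

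Of 7 tested epicardial and proepicardial markers 6 fell and none rose, with sums of 202.6 to 212.7 CPM in controls and 82.7 to 85.0 CPM in MCKO. Lrrn4 changed by -2.63 (SE 0.089) and Tbx18 by -1.41 (SE 0.051) on the log2 scale. The epicardium is a mesothelium with junctions of its own, and the part of its lower markers in the falls of Dsc2 and Dsg2 was not tested. Of 8 mesenchyme and neural crest markers 6 fell, Postn and Col3a1 among them, and none rose, from sums of 475.4 to 497.7 CPM to sums of 196.0 to 205.0 CPM. All 4 tested liver bud and yolk sac markers fell, Afp and Hnf4a among them, from 13.8 to 15.5 CPM in sum to 0.194 to 0.672 CPM. Of 3 tested neural tube markers 2 rose and 1 fell, Pax6 with 1.71 (SE 0.18) and Tubb3 with -2.35 (SE 0.14), with sums of 21.6 to 26.8 and 9.18 to 10.1 CPM. Of 2 tested leukocyte markers 1 fell, Csf1r, and the list summed to 3.01 to 3.54 CPM in controls and 1.28 to 1.97 CPM in MCKO.

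Of 21 cadherin genes 12 were tested, 7 fell and 3 rose, with a median of -0.51. Cdh11, a cadherin of mesenchyme, fell from 50.7 ± 4.1 to 22.5 ± 0.65 CPM. Cdh3, P-cadherin, fell from 82.8 ± 0.61 to 48.5 ± 1.5 CPM and Cdh20 from 6.86 ± 0.62 to 4.05 ± 0.32 CPM. Cdh5, the cadherin of endothelium, rose from 180.5 ± 2.6 to 209.7 ± 7.9 CPM, in the libraries in which 8 of 10 endothelial markers rose, Cdh5 itself among them. The 9 untested cadherin genes had at most 16 counts in any library.

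Other proteins of the adherens junction went both ways. Of 21 tested genes 8 rose and 7 fell, with a median of -0.07. Afdn, the actin-binding scaffold afadin of nectin junctions, rose from 491 ± 18.3 to 665 ± 18.6 CPM, and Magi1, a junctional scaffold, from 42.2 ± 1.9 to 64.5 ± 6.2 CPM. Lima1, an actin cross-linker that binds alpha-catenin, fell from 59.1 ± 1.7 to 34.5 ± 1.3 CPM. Pkp4, which is related to p120-catenin, fell from 126.0 ± 2.0 to 89.6 ± 0.45 CPM. Of 13 further desmosome genes only Perp, Ppl and Evpl were tested. Perp, a desmosomal membrane protein and p53 target, fell from 38.7 ± 0.87 to 27.7 ± 1.2 CPM, and Ppl and Evpl, plakins of stratified epithelia named to complete the count, were at 0.59 and 1.03 CPM in controls and at 0.624 and 0.997 CPM in MCKO and were not called.

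Other proteins of the intercalated disc also went both ways, with 9 of 20 higher, 5 lower and a median of 0.088. Xirp1, an actin-binding protein of the disc, fell from 322.4 ± 4.5 to 241.9 ± 5.8 CPM. Ank3, ankyrin G, rose from 315.4 ± 3.6 to 426.1 ± 4.0 CPM and Csrp3, muscle LIM protein, from 429.5 ± 18.9 to 642.2 ± 20.3 CPM. Of 9 genes for intermediate filaments and their linkers, the structures that desmoplakin holds, 7 rose and 1 fell, with a median of 0.38. Krt8, Krt18 and Krt19 were given above, and the keratin gene Krt8, which has a near-identical copy, rose by 0.67 (SE 0.061). Nes, nestin, rose from 312.6 ± 19.4 to 384.0 ± 1.9 CPM. Des, desmin, the filament of heart muscle desmosomes, was named after its value was seen, and its log2 fold change of 0.010 (SE 0.062, edgeR adjusted p = 0.898) was not called. Of the lists in this and the previous paragraphs, that of filaments shares its 4 keratins with the epithelial markers, and Cdh1 and Cdh5 are each on a marker list.

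**Figure D4:**
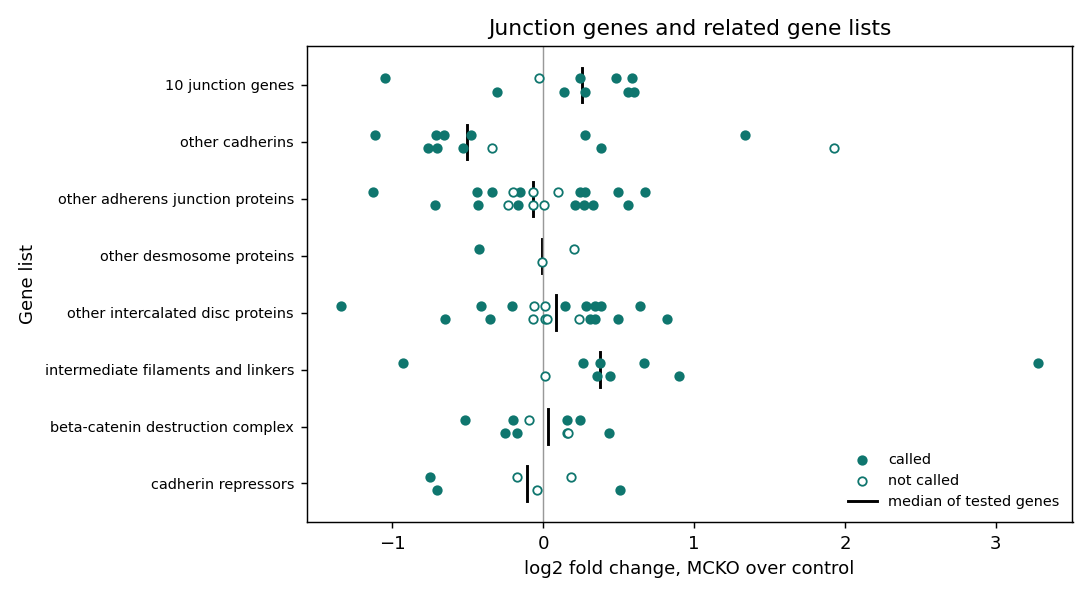
Log2 fold change, MCKO over control, of the tested genes of each list (filled points called, open points not called) and the median of each list (black bar). The junction genes have a median of 0.26, other cadherins of -0.51 and intermediate filaments and linkers of 0.38.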

How the data were processed

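RNA-seq libraries of whole embryonic hearts (3 control, 3 MCKO) were prepared with the TruSeq Stranded LT mRNA kit, per the labels' protocols. The deposited values are estimated counts per gene, as whole numbers. The submitters' processing notes name kallisto and mm10, with no version or role. Transcript set, summing to genes and use of strand: not given in the sources used here. Knockout columns, named CKO, were matched to the MCKO titles by number.

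Symbols and positions came from GENCODE M21 (GRCm38), which matched 29857 of 30323 gene IDs. MCKO was set against control in edgeR 4.0.16 under R 4.3.3 (filterByExpr, TMM, robust quasi-likelihood, group as the only term, 2-sided, Benjamini-Hochberg over all tested genes), and genes were called at an adjusted p under 0.05. Intervals are 95%. The fit was also run on counts simulated with its own dispersions and few changed genes. Far more genes were called in these data, so that run does not test their calls. CPM are shares of the library total. The Ctnna1 and Jup shares were tested by exact permutation, and no p is given for the other shares.

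The members and lists were chosen with earlier results of these data known. Beyond the 10 genes and Cdc42, the text names up to 4 called genes by smallest p from each pathway list and up to 2 from each marker list. One gene that this rule names is not reported here. Copies were sought with minimap2, at 95% identity over 80% of the shorter transcript, and none was found for the 10 genes. Alternatives tried were DESeq2's size factors in edgeR, library totals, no filter, at least 50 counts in 3 libraries, DESeq2 1.42.0, limma-voom (limma 3.58.1), the replicate block and each library left out.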

Additional observations from a re-analysis of the deposited data

How the results depend on the processing

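Over 13 alternative fits the number of genes called was 7452 to 8767, against 8587, and 8 or 9 of the 10 junction genes were called. The call that was lost was that of Vcl. With 1 library left out at a time, 7452 to 8695 genes were called. Over all 13 fits Dsc2 ran from -1.13 to -0.996 on the log2 scale and Dsg2 from -0.37 to -0.28. Jup ran from 0.52 to 0.73, Dsp from 0.50 to 0.59 and Pkp2 from 0.53 to 0.60. Ctnnb1 was not called in any of these fits. With library totals its log2 fold change was -0.09 (edgeR adjusted p = 0.101), and with 1 library left out it ran from -0.05214 to 0.01046. Its sign reversed without control replicate 2, the control library with the highest Ctnnb1 level (772 CPM). Why that library was higher was not tested. With library totals 42.6% of calls were higher, against 50.2%, and the median log2 fold change of all tested genes shifted by -0.062. With the replicate block 7765 genes and 9 junction genes were called. Same-numbered libraries had correlations of -0.0047, 0.022 and -0.13 between their deviations from the group means, and 1 of 6 libraries correlated best with its own number, so the numbers were not taken as pairs. Without scaling by length the Dsg2 and Dsc2 share of the desmosome gene counts changed by -7.81 percentage points, against -10.4. The Jup share rose by 6.65 against 5.77 and the desmosome share by 4.73 against 3.97. The labels give no batch, so a batch that follows the groups cannot be told apart from the knockout.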

Other observations

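In the absence of a Wnt signal, beta-catenin that is not held in junctions is marked for breakdown by the destruction complex. Of 10 genes of that complex and its ubiquitin ligases 4 rose and 4 fell in MCKO, with a median log2 fold change of 0.033. Amer1, a membrane-bound partner of APC, fell from 69.1 ± 5.2 to 46.3 ± 2.2 CPM (mean ± SD, n = 3 each), Apc from 153 ± 9.9 to 123 ± 8.6 CPM and the ligase subunit gene Btrc from 53.0 ± 2.1 to 44.1 ± 1.4 CPM. Axin2, a scaffold of the complex and itself a target of Wnt signalling, rose from 11.9 ± 0.83 to 15.4 ± 0.90 CPM.

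Of 6 transcription factors known to repress cadherin genes in epithelia, 1 rose and 2 fell, with a median of -0.11. Zeb1 rose from 89.3 ± 2.9 to 122 ± 2.4 CPM. Twist1 fell from 14.3 ± 1.1 to 8.13 ± 1.07 CPM and Snai1 from 6.78 ± 1.06 to 3.98 ± 0.24 CPM, in the libraries in which 6 of 8 mesenchyme and neural crest markers fell, Twist1 being on that list too. Their part in the changes of the junction genes was not tested.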
